A study of Mus musculus with 7 samples.

Results

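Tbx21, Eomes, Prdm1, Bcl6, Zeb2, Id2 and Id3 encode 7 transcription regulators that steer CD8+ T cells (CD8-TC) towards effector or memory states, and their loci were examined for binding of the transcription factor Runx3 and for histone H3 monomethylated at lysine 4 (H3K4me1), a mark of enhancers. The genes were chosen by name, out of 22350 protein-coding genes of the GENCODE annotation of mouse genome build NCBIM37 (mm9). Earlier results of these data were known when they were chosen. A region was given to a gene when its midpoint lay in the gene body or within 50 kb of it, a stretch called the window of the gene below. By this rule the 7 genes held 7 of the 4934 Runx3-bound regions and 126 of the 76705 H3K4me1-marked regions of the series.

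The series measured chromatin immunoprecipitation followed by sequencing (ChIP-seq) in splenic CD8+ T cells of wild-type ICR mice, an outbred strain, whose age and sex are not given in the sources used here. Its 7 libraries formed 3 groups: Runx3 with 3 libraries from 2 repeats, H3K4me1 with 2 libraries, and non-immune rabbit serum (NIS) as the control, with 2 libraries. Every library came from the same kind of cells, collected from 18 mice per the labels, which do not say whether the repeats used the same animals. The cells were selected on anti-CD8 magnetic beads to a purity over 95% per the labels, and fixed without any culture or treatment, so that they are resting cells of pooled animals. The repeats of each antibody had been joined before regions were called, so that 1 list per antibody exists and the spread between repeats is not known for any value given here. The lists give positions only, with neither height nor read count, so the depth behind a region is unknown, and a place that is not listed cannot be told apart from one just under the calling threshold. A region present in a part of the cells cannot be told apart from a weaker one present in all of them.

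After infection, naive CD8-TC divide and give rise to short-lived effector cells, which kill, and to long-lived memory cells. T-bet (Tbx21), Blimp-1 (Prdm1), Zeb2 and Id2 favour the effector side, whereas Eomesodermin (Eomes), Bcl6 and Id3 are tied to memory cells and their precursors. Several of these proteins oppose each other, as Blimp-1 and Bcl6 repress one another's genes, and Id2 and Id3 hold back the E proteins, which bind E-box sequences.

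The central 200 bp of the 7 Runx3-bound regions are printed first, to show where RUNX motifs lie near their midpoints. Motif counts below are over the whole region unless the central 200 bp are named. They are plus-strand sequences of NCBIM37, the C57BL/6 reference and not the ICR mice themselves. Capitals mark the canonical RUNX motif, searched in its variants TGTGGT and also TGTGGC, further as TGCGGT and also TGCGGC, on both strands, so that a copy on the minus strand reads for example ACCACA.
Tbx21 Runx3-bound region 1, chr11:97004905-97005104: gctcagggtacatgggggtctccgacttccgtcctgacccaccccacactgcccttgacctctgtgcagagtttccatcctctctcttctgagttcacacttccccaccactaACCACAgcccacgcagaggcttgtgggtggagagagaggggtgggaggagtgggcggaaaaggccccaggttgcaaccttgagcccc
Prdm1 Runx3-bound region 1, chr10:44149247-44149446: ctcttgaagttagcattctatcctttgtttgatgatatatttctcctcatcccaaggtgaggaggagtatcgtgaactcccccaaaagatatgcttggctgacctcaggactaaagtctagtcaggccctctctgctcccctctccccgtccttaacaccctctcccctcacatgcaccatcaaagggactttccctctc
Prdm1 Runx3-bound region 2, chr10:44203032-44203231: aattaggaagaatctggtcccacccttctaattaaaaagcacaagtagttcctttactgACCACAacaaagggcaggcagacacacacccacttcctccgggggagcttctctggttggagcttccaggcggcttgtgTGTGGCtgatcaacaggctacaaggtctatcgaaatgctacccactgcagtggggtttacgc
Zeb2 Runx3-bound region 1, chr2:44837329-44837528: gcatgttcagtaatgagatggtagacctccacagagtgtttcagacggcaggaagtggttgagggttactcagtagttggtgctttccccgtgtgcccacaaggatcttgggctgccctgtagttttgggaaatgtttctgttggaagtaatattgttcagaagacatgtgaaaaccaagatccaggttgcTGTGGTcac
Zeb2 Runx3-bound region 2, chr2:44935974-44936173: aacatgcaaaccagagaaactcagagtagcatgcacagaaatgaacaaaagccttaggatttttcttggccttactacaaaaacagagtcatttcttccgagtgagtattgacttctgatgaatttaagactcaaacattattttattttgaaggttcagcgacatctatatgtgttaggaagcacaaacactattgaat
Id3 Runx3-bound region 1, chr4:135656473-135656672: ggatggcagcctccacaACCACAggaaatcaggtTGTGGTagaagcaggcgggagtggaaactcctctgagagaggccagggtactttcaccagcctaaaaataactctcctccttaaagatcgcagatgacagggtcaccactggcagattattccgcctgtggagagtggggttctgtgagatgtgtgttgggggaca
Id3 Runx3-bound region 2, chr4:135733576-135733775: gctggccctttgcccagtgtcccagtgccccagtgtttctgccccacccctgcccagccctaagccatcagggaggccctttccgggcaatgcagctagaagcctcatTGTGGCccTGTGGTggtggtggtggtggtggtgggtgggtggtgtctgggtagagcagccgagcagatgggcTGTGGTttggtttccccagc
Capitals appear in 5 of these 7 windows of 200 bp. The first Prdm1 region carries its RUNX motifs outside the printed centre, and the second Zeb2 region has none anywhere.

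The Runx3-bound regions fell at 4 of the 7 genes, against 30.8% of all protein-coding genes with at least 1 region by the same rule. Prdm1, Zeb2 and Id3 had 2 regions each and Tbx21 had 1, whereas Eomes, Bcl6 and Id2 had none within their windows. A gene with 2 regions had more than 89.9% of all protein-coding genes, whose median was 0, and 10.1% of genes had 2 or more. That rank is by count, and the windows differ in length. Per 100 kb, Zeb2 with 2 regions had 0.856 and Tbx21 with 1 region had 0.853, above 81.0% and 80.9% of genes. By the same measure Prdm1 was above 91.1% and Id3 above 96.9% of genes. None of the 7 regions lay at a promoter of these genes. No gene of the 7 had a Runx3-bound region within 1 kb of its start, which 4.14% of all genes had, and all 7 regions were over 5 kb from every start site of the gene they were given to. Only 2 of the 7 lay inside the body of the gene they were given to, 1 in Prdm1 and 1 in Zeb2.

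**Figure D1:**
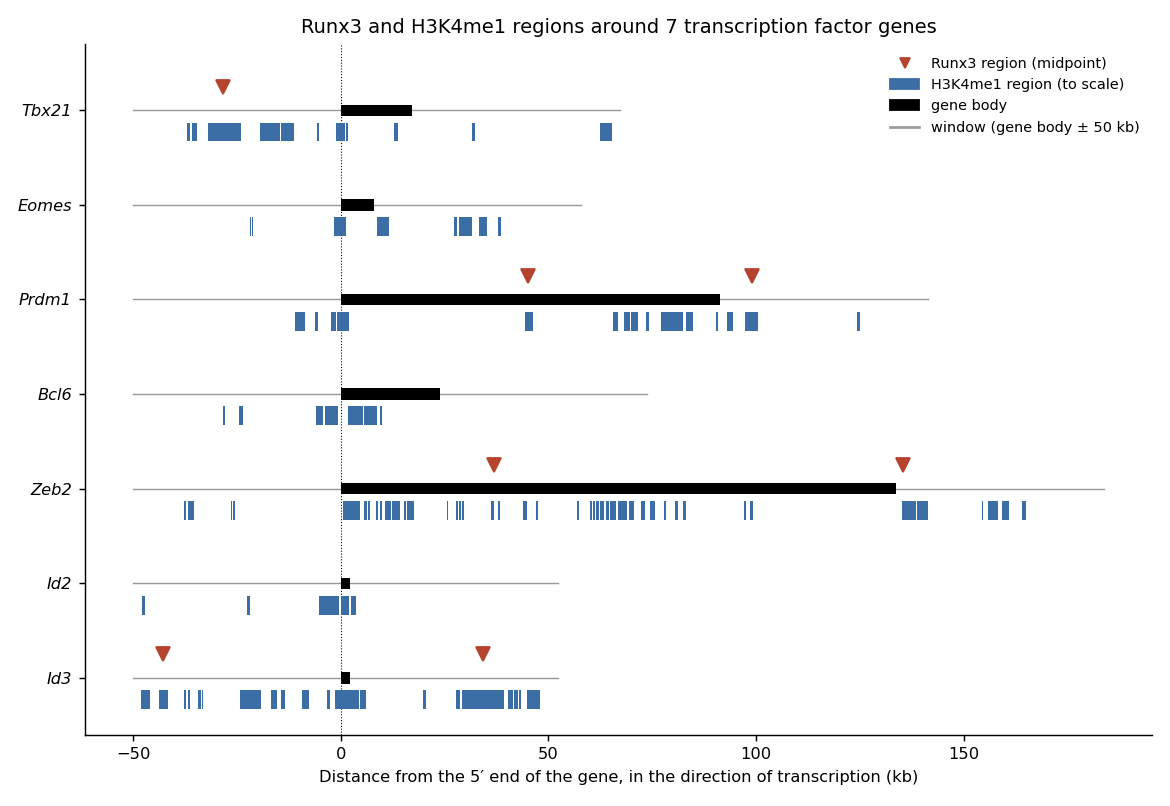
The 7 windows are drawn to scale from the 5′ end of each gene in the direction of transcription (kb), with the gene body as a black bar, H3K4me1-marked regions as blue bars and midpoints of Runx3-bound regions as red triangles. Red triangles appear at Tbx21, Prdm1, Zeb2 and Id3, and none sits within 5 kb of a 5′ end, while blue bars appear in all 7 windows.

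H3K4me1 was found at all 7 genes, against 79.3% of all protein-coding genes with at least 1 region in the window. All 7 also had a marked region within 1 kb of a transcription start site (TSS), against 58.4% of all genes. The number of marked regions was 47 at Zeb2, 22 at Id3, 16 at Prdm1, 14 at Tbx21, 10 at Bcl6, 9 at Eomes and 8 at Id2, and the median over all protein-coding genes was 7. Every one of the 7 counts was thus above that median, but Id2 at the 52.5th percentile and Eomes at the 56.9th were close to it. Window length differed between the genes, from 102 kb at Id2 and Id3 to 234 kb at Zeb2. Per 100 kb, Id3 led with 21.5 regions and Zeb2 followed with 20.1, then came Tbx21 with 11.9, and the other four lay between 7.82 and 8.36, against a median of 5.23 over all genes.

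**Figure D2:**
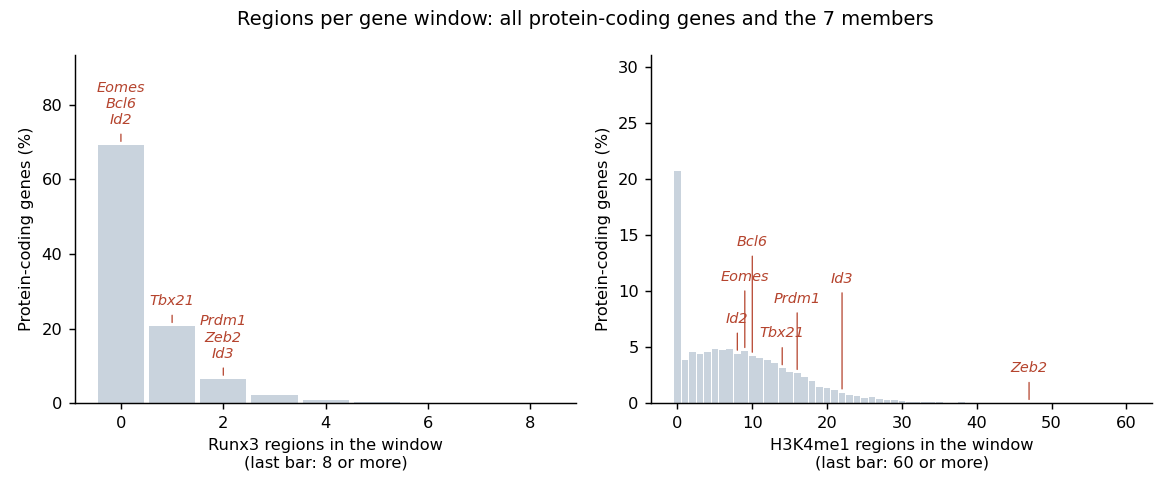
Histograms show the percentage of protein-coding genes (y axis) by the number of Runx3-bound regions (left) and H3K4me1-marked regions (right) in their windows, with the place of each of the 7 genes marked in red. The genes spread over 0 to 2 Runx3-bound regions and over 8 to 47 H3K4me1-marked regions, where Zeb2 stands alone in the right tail.

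The T-box genes differed in both lists. Tbx21 encodes T-bet, which drives the effector programme and interferon gamma production. It lies on chr11:96959385-96976645 on the minus strand (ENSMUSG00000001444.2) and had 1 Runx3-bound region of 921 bp at chr11:97004544-97005464, 28.4 kb upstream of its only annotated TSS. That place is an intron of the neighbouring gene Tbkbp1, whose own TSS is nearer, at 6.02 kb, and the windows of Kpnb1 and Tbkbp1 hold the region as well. The nearest gene by TSS was therefore not Tbx21. The region sat whole within an H3K4me1-marked region of 7982 bp, wider than 99.2% of all marked regions, and its midpoint was 276 bp from the centre of that domain. It held 3 RUNX motifs, and 1 of them, TGTGGT on the minus strand, lay 17 bp from the midpoint. The centre printed above shows this copy as ACCACA.

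Eomesodermin, the T-box relative that supports memory cells, is encoded on chr9:118387330-118395250 on the plus strand (ENSMUSG00000032446.8). No Runx3-bound region lay in its window. Its 9 H3K4me1-marked regions covered 12.9 kb, against 25.2 kb at Tbx21, or 11.9% and 21.5% of their windows. All 3 annotated start sites of Eomes lay within 1 marked region of 2915 bp, and the remaining regions lay mostly downstream, with 6 of the 9 there and none with its midpoint in the gene body. At Tbx21 the order was the other way round, with 8 of 14 regions upstream, 3 in the gene body and 3 downstream. A marked region of 987 bp covered the Tbx21 TSS, reached 979 bp into the gene and 7 bp upstream of it. The next marked region, 1198 bp wide, began 55 bp upstream of the TSS.

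Prdm1 encodes Blimp-1, a zinc-finger repressor that drives terminal effector differentiation, and lies on chr10:44156983-44248307 on the minus strand (ENSMUSG00000038151.6). It had a pair of Runx3-bound regions 53.8 kb apart, and for both the nearest protein-coding TSS was that of Prdm1. The first, chr10:44148730-44149962, was the widest of the 7 at 1233 bp, wider than 95.5% of the list, and lay in intergenic sequence 7.64 kb past the 3′ end. It held 4 RUNX motifs, none in the central 200 bp, and 17 ETS motifs, the highest count among the 7 regions. The second, chr10:44202595-44203667, measured 1073 bp and lay 24.6 kb upstream of the start of the coding transcript Prdm1-001. In the annotation this place is an intron of the noncoding transcript Prdm1-003, which extends the gene 5′, so that it counts as gene body although it precedes every coding exon. It held 5 RUNX motifs, 2 of them in the printed centre at 37 and 42 bp from the midpoint.

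The 16 H3K4me1-marked regions of Prdm1 covered 26.1 kb, and 10 of them lay in the gene body. The widest, 4674 bp at chr10:44166503-44171176, lay in an intron and held no Runx3-bound region. The marked regions that did hold Runx3 took ranks 2 and 6 in width at this gene, with 2987 and 1786 bp. At the start of Prdm1-001 the mark was broken by a gap of 221 bp, with marked sequence from 76 bp upstream and from 146 bp downstream.

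Bcl6, the zinc-finger repressor that opposes Blimp-1, lies on chr16:23965138-23988938 on the minus strand (ENSMUSG00000022508.5). Its window held 10 H3K4me1-marked regions, 6 in the gene body, 4 upstream and none downstream, and no Runx3-bound region. They were compact. When neighbours within 1000 bp were merged, the 10 became 4, of which the widest ran over 7978 bp at chr16:23979128-23987105 and joined 6 called regions. The gap around the start of Bcl6-001 measured 2585 bp, the mark beginning 753 bp upstream and 1833 bp downstream, and no annotated Bcl6 TSS lay inside a marked region.

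Zeb2 encodes a zinc-finger protein that binds E-boxes and represses memory genes in effector cells. The gene is long, 134 kb on chr2:44839154-44972915 on the minus strand (ENSMUSG00000026872.8), with 11 annotated transcripts, and it had the highest number of marked regions of the 7 genes, above 99.8% of protein-coding genes. Of these 47 regions, 37 lay in the gene body. They were narrow, with a median width of 653 bp against 979 bp over the whole list, and covered 45 kb or 19.2% of the window. Merging neighbours within 1000 bp left 23 stretches, and the widest joined 8 called regions over 10650 bp. The 5′ end of Zeb2-001 itself was not marked, the next marked base lying 525 bp into the gene, whereas the starts of Zeb2-201 and Zeb2-002 lay inside marked regions of 467 and 493 bp.

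The pair of Runx3-bound regions at Zeb2 differed in nearly every measure. The first, chr2:44837015-44837842, lay 1.73 kb past the 3′ end, 128 kb from the nearest Zeb2 start, and the nearest protein-coding TSS was that of Gtdc1 at 54.3 kb. It overlapped the widest marked region of the locus, 3480 bp, for 99.5% of its length, and held 2 RUNX motifs. The second, chr2:44935731-44936415, lay in an intron, 29.8 kb from the nearest Zeb2 start, and was the narrowest of the 7 at 685 bp, at the 19.6th percentile of the list. It was also the only one of the 7 without a RUNX motif, had the lowest GC content, 33.6%, and was covered by H3K4me1 for only 53.0% of its length. Its midpoint was 20 bp inside the edge of a marked region of 712 bp. The centre printed above accordingly has no capitals. Of all Runx3-bound regions, 88.8% held a RUNX motif, so that this region belongs to the remaining minority of the list.

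The Id proteins are small helix-loop-helix proteins that bind E proteins and lack a DNA-binding domain of their own. Id3, on chr4:135699412-135701670 on the plus strand (ENSMUSG00000007872.3), is only 2.26 kb long, and both of its Runx3-bound regions lay outside the gene, 77.1 kb apart on opposite sides. The first, chr4:135656114-135657030, was 42.8 kb upstream in intergenic sequence, with Id3 as the nearest protein-coding TSS, and is shared with the window of Rpl11. The second, chr4:135733205-135734145, was 32.0 kb past the 3′ end in an intron of E2f2, whose TSS was only 3.05 kb away, and the windows of Asap3 and E2f2 hold it as well. It carried 5 RUNX motifs, or 5.31 per kb, the highest density of the 7, and 3 of them lay in the printed centre at 12, 20 and 84 bp from the midpoint. The marked region around it, chr4:135728498-135738661, was 10164 bp wide, above 99.6% of the list, and its Runx3-bound region lay 96 bp from its centre.

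H3K4me1 covered 41.2 kb of the Id3 window, or 40.3%, a share above that of 99.1% of protein-coding genes. Of its 22 regions, 13 were upstream and 9 downstream. The TSS of Id3-001 lay within a region of 1605 bp that reached 1336 bp upstream and 268 bp into the gene. E2f2, a cell cycle regulator whose gene reaches into the Id3 window, shares part of this territory, and positions alone do not assign a marked region to either gene.

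Id2, on chr12:25778666-25780957 on the minus strand (ENSMUSG00000020644.8), is nearly as short as Id3 at 2.29 kb, and the windows of the Id genes have the same length of 102 kb. Yet the Id2 window held 8 marked regions where that of Id3 held 22, and 9.48 kb of marked sequence where that of Id3 held 41.2 kb. No Runx3-bound region was listed there. The marked sequence lay close to the gene: merging neighbours within 1000 bp joined 6 of the 8 regions into a stretch of 8893 bp, chr12:25777217-25786109, around the gene itself. The Id2 TSS fell in a gap of 340 bp within that stretch, 321 bp from the mark upstream and 20 bp from the mark downstream. Marked regions without Runx3 held 3.06 RUNX motifs per kb at Id2, against 1.91 over all such regions and 1.32 to 1.86 at the other six genes.

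For the genes without a region in the window, the nearest Runx3-bound region lay upstream each time, in intergenic sequence, and the gene itself was the nearest protein-coding gene. It was 77.5 kb away at Eomes (chr9:118309439-118310182), 165 kb at Bcl6 (chr16:24153959-24154668) and 335 kb at Id2 (chr12:26115526-26116427). All 3 overlapped H3K4me1 and held RUNX motifs, 2 at the Eomes region, 4 at the Bcl6 region and 5 at the Id2 region. Over all protein-coding genes the median distance from the gene start to the nearest Runx3-bound region was 149 kb, so that Bcl6 was close to the median gene, Eomes nearer and Id2 farther. Of these 3 genes, Eomes alone gains a region at a margin of 100 kb. The region counted that lay farthest outside a gene body was that of Id3 at 42.8 kb, and at 100 kb a further region at Tbx21 enters too. The centres of these 3 regions, and 200 bp of the marked sequence next to Id2 that had RUNX motifs but no listed Runx3-bound region, are shown for comparison with those at the other four genes.
Eomes, nearest Runx3-bound region, chr9:118309711-118309910: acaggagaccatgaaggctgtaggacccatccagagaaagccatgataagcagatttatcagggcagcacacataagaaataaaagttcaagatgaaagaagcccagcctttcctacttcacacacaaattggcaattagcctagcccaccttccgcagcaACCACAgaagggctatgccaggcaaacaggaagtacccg
Bcl6, nearest Runx3-bound region, chr16:24154214-24154413: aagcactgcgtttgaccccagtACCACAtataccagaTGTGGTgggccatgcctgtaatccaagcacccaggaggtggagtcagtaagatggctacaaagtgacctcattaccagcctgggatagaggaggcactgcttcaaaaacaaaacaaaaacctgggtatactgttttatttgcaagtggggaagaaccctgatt
Id2, nearest Runx3-bound region, chr12:26115877-26116076: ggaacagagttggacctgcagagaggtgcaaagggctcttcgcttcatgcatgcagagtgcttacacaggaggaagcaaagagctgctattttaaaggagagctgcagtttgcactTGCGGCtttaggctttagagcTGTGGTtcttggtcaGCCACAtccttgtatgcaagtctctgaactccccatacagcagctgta
Id2, H3K4me1 without Runx3, chr12:25781474-25781673: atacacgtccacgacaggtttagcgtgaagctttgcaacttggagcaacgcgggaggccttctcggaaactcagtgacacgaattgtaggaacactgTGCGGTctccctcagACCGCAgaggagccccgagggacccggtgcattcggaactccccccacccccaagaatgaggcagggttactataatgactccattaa
The centres hold 1 RUNX motif at Eomes, 2 at Bcl6 and 3 at Id2. The window next to Id2 was chosen for the RUNX motifs it holds, so its count of 2 is not comparable with those of the centres.

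Related or opposed genes can be set side by side, a grouping made after the values were seen and in which Zeb2 has no counterpart. Tbx21 had 1 Runx3-bound region and Eomes none, Prdm1 had 2 and Bcl6 none, and Id3 had 2 and Id2 none. With a margin of 10 kb, of these pairs only Prdm1 and Bcl6 differed, since Tbx21 and Id3 then had 0 as well, and by nearest TSS Tbx21 also had 0. The sides do not follow the effector and memory roles, since Tbx21 and Prdm1 belong to the effector side and Id3 to the memory side. H3K4me1 covered 21.5% of the window at Tbx21 and 11.9% at Eomes, 13.6% at Prdm1 and 11% at Bcl6, and 40.3% at Id3 and 9.27% at Id2, against a median of 5.96% over all protein-coding genes. The Tbx21 window overlaps 4 other protein-coding genes, those of Eomes, Bcl6, Id3 and Id2 overlap 1 each, and that of Prdm1 overlaps none. Positions alone do not divide the marked sequence between these genes and their neighbours. With 1 joined list per antibody, no replicate error is at hand for these differences, and they were not tested.

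All 7 Runx3-bound regions overlapped H3K4me1 by at least 1 bp, 100% with a 95% Wilson interval of 64.6 to 100%, against 78.8% of all Runx3-bound regions. The interval covers counting error over regions only and contains the value of the whole list. The midpoint lay within a marked region in 7 of 7, against 66.1% of all Runx3-bound regions, and 5 of the 7 were covered over their whole length. From the side of the mark, 7 of the 126 marked regions held Runx3, against 5.49% of all marked regions. These 7 had a median width of 2987 bp and the other marked regions of the 7 genes one of 883 bp. Over the whole list the medians were 2260 bp with Runx3 and 946 bp without, so that the difference runs the same way genome-wide. A wider marked region offers more sequence in which an overlap of 1 bp can fall. The part of this rule in the difference was not tested.

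**Figure D3:**
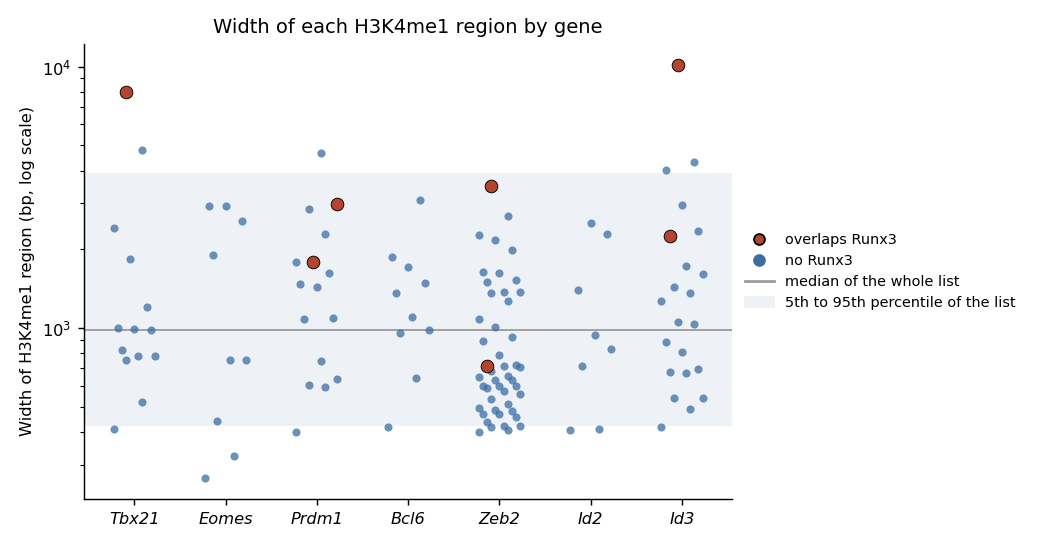
Each point is 1 H3K4me1-marked region, placed by gene (x axis) and width in bp (y axis, log scale), with red for those that overlap Runx3, a line at the median of the whole list and a band from its 5th to its 95th percentile. The widest point is red at Tbx21, Zeb2 and Id3 but not at Prdm1, and the red points reach from 712 to 10164 bp.

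The widest marked region held Runx3 at 3 of the 4 genes with both kinds of region, namely Tbx21, Zeb2 and Id3, against 39.8% of the 6599 protein-coding genes with both. At Id3 and Tbx21 these were the only marked regions of 5000 bp or more among the 126, a width reached by 2.78% of the whole list. The order depended on how regions were joined. After neighbours within 1000 bp were merged, the widest stretch held Runx3 at Id3 alone, while at Tbx21 a merged stretch of 8343 bp without Runx3, chr11:96987810-96996152, became the widest.

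The motif content of the 7 regions was close to that of the list for RUNX and ETS. A RUNX motif was present in 6 of 7 (85.7%, 95% Wilson interval 48.7 to 97.4%), against 88.8% of all Runx3-bound regions, and in the central 200 bp of 5, against 66.0%. ETS proteins are common partners of RUNX proteins on DNA. Their motif, searched as AGGAAG and also AGGAAA, further as CGGAAG and also CGGAAA, on both strands, was present in 7 of 7, against 95.0% of the list, and lay within 50 bp of a RUNX motif in 5 of 7, against 58.6%, when only copies that do not overlap each other are compared. The exceptions were the first Prdm1 region, where the closest copies were 64 bp apart, and the Zeb2 region without a RUNX motif. The gap between the closest RUNX and ETS motifs was 1 bp at Tbx21, 9 bp at the second Prdm1 region, 19 bp at the first Zeb2 region, and 6 and 8 bp at the Id3 regions. In the upstream Id3 region 1 ETS motif also overlapped a RUNX motif.

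Among the 23 RUNX motifs of the 7 regions, TGTGGT occurred 12 times, TGTGGC 9 times, and TGCGGT and TGCGGC 1 time each, the last 2 both in the upstream Id3 region. In the central 200 bp, TGTGGT was present in 5 of 7 regions, against 46.6% of the list. TGTGGC was there in 2, against 22.4%, and TGCGGT and TGCGGC in none, against 10.7% and 5.43%.

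**Figure D4:**
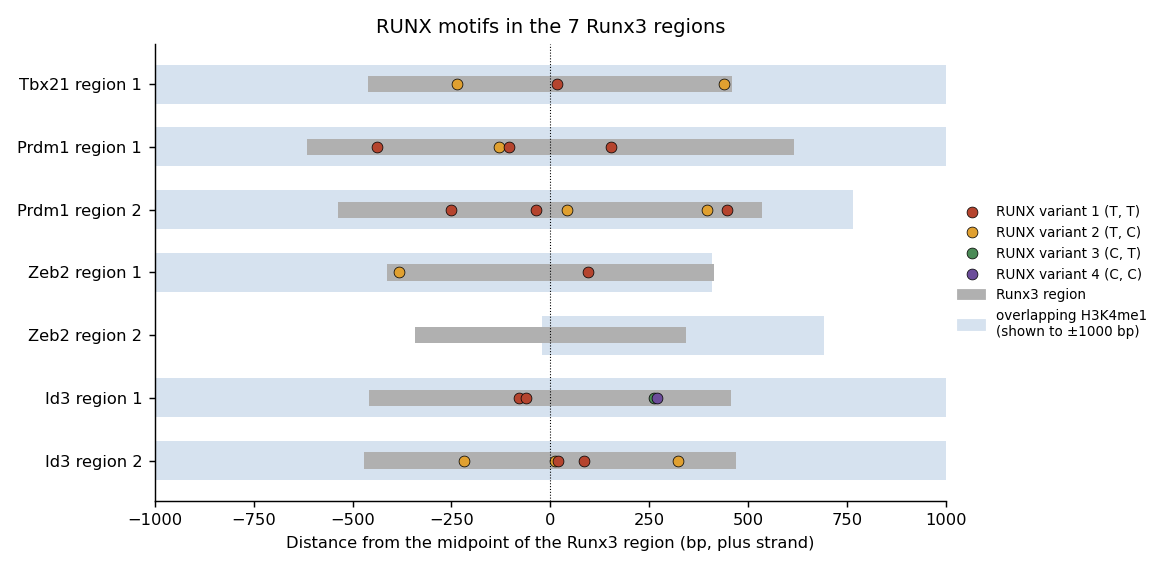
The 7 Runx3-bound regions (grey) are aligned at their midpoints on an axis of distance in bp on the plus strand, over the H3K4me1-marked regions they overlap (pale blue), with a dot for each RUNX motif coloured by variant, where the letters give the bases at positions 3 and 6 of the motif. A dot lies within 100 bp of the midpoint in 5 regions, the second Zeb2 region has no dot, and its marked region begins 20 bp before the midpoint.

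Other motifs were counted because the 7 proteins or their partners bind them. The T-box motif AGGTGT, which T-bet and Eomesodermin recognise, was present in 5 of 7 regions with 1 copy each, against 39.7% of the list, and was missing in the second Prdm1 region and the second Zeb2 region. In 4 of the 5 the copy overlapped an E-box motif, since the letters of CAGGTG and AGGTGT can run into each other, and in the upstream Id3 region it also overlapped a RUNX motif. E-box motifs, searched as CAGCTG and CAGGTG, were present in 6 of 7, against 62.6%, with 6 copies in the downstream Id3 region. The TCF motif CTTTGA was present in 3 of 7, against 51.8%, all of them at Prdm1 or Zeb2. AP-1 motifs, TGAGTCA or TGACTCA, were found in none of the 7, against 16.5% of the list. Each motif was searched on both strands, and a match is a description of the letters and not evidence of binding.

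RUNX motifs were also frequent in marked regions outside the Runx3 list. Among the marked regions of the 7 genes that held no Runx3, a RUNX motif was present in 11 of 13 at Tbx21, 7 of 9 at Eomes, 11 of 14 at Prdm1, 9 of 10 at Bcl6, 31 of 45 at Zeb2, 7 of 8 at Id2 and 19 of 20 at Id3. The share over all marked regions without Runx3 was 80.7%. By density the 6 bound regions with a motif held 2.42 to 5.31 RUNX motifs per kb and the second Zeb2 region 0, against 1.91 per kb over all marked regions without Runx3. The latter value is pooled over regions. Taken singly, the marked regions without Runx3 at the 7 genes ranged from 0 to 9.79 per kb, so the ranges overlap. The promoters, taken from 250 bp upstream to 50 bp downstream of the 5′ end of the gene, held a RUNX motif at 5 of the 7 genes, against 45.3% of all protein-coding genes. Prdm1 had 3 copies there, at the start of its noncoding transcript, Tbx21, Eomes, Id2 and Id3 had 1, and Bcl6 and Zeb2 had none, although no promoter of the 7 was listed as bound.

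Genes that act with the 7 were counted by the same rule. Regions shared by neighbouring genes count for each of them, and longer genes have longer windows. Over all protein-coding genes, 30.8% had a Runx3-bound region and the median was 0. Of 15 regulators that act upstream, such as signal transducers and factors of naive cells, 14 had a Runx3-bound region, with a median of 2.00 and a range of 0 to 7. Tcf7 and Lef1, which maintain naive and memory cells, had 7 each, and so had Klf2, a regulator of lymphocyte homing, and Runx1, whereas Irf4, which is induced by T cell receptor signals, had none. The median at the 7 genes was 1.00, and counts were not scaled to window length. Of 13 effector and memory targets, 10 had a region, among them Ccr7, the lymph node homing receptor, with 6, and Prf1, encoding perforin, with 3. Cxcr3, Cxcr5 and Myc had none.

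Partners and antagonists of the 7 proteins had a region at 5 of 7 genes, with 1 each. Tcf3 and Tcf12, which encode E proteins bound by Id2 and Id3, had 1 each, as had Zeb1, the paralog of Zeb2. Tcf4, a further E protein, and Bcor, a co-repressor of Bcl6, had none but 41 and 35 marked regions. Relatives from the same families, most of them best known from other tissues, had a Runx3-bound region at 3 of 9 genes. That share is close to the 30.8% of all genes. H3K4me1 was found at 5 of the 9, against 79.3% of all genes, with none at Id4, Tbx5, Tbx20 and Prdm16. The median number of marked regions over the 9 relatives was 4, against 14.0 at the 7 genes and 7 over all genes.

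The labelled cell type was checked against marker genes. By the same rule, 30.8% of all protein-coding genes had a Runx3-bound region and 79.3% a marked one. The median over all genes was 7 marked regions. All 7 T cell markers, Cd3e, Cd3d, Cd3g, Cd5, Lck, Cd8a and Cd8b1, had Runx3-bound regions, 2 to 7 each, and 17 to 31 marked regions. Genes that lie close together, such as Cd8a and Cd8b1, can share regions, so the 7 markers are not separate loci. Of the natural killer cell markers, Ncr1 had neither kind of region and Klrb1c had 1 Runx3-bound and 15 marked regions. The erythroid markers had no Runx3-bound region and 1 and 16 marked ones. B cell markers had Runx3-bound regions at 3 of 4 genes and 12 to 28 marked regions. Of the 4 myeloid markers, Itgam had 2 Runx3-bound and 26 marked regions, whereas Lyz2, Csf1r and Cd14 had no Runx3-bound region and 1, 7 and 11 marked ones. The part that other cells had in the regions of the 7 genes was not tested. The NIS libraries served as the control of both lists, and their part in the overlap was not tested.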

How the data were processed

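ChIP-seq of Runx3, H3K4me1 and NIS was carried out on CD8-TC, with chromatin sheared to about 300 bp per the labels. The authors aligned reads to mm9 with ELAND (the submitters' processing notes name CASAVA 1.6 and 1.7), kept unique alignments, joined the repeats and called peaks with MACS against NIS after scaling the larger data set to the smaller. The deposited values are start and end positions in bp. The lists hold no score, so the planned filter by score was made by width. Whether both files of the first Runx3 repeat entered the joined list is not given in the sources used here.

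Positions were made 1-based and joined to the NCBIM37 sequence and GENCODE release M1 with Python 3.11.15 and numpy 2.4.6, after the counting had been tested on simulated data. Overlap meant at least 1 bp. The shares of Runx3-bound regions with H3K4me1 and with a RUNX motif have Wilson intervals. No test was made, since each antibody has 1 joined list. All 7 genes were described. Other genes were named when they shared a Runx3-bound region or were nearest to it, overlapped a window, or belonged to a listed group. The genes and lists were chosen with earlier results of these data known. Alternatives varied the margin, the assignment, the width and the merging.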

Additional observations from a re-analysis of the deposited data

How the results depend on the processing

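The number of Runx3-bound regions at the 7 genes, 7 with a margin of 50 kb, became 4 at 10 kb, 2 in gene bodies alone, 4 when the nearest protein-coding TSS had to be that of the gene, and 17 at 250 kb, a margin added after seeing the data. The number of genes with such a region, 4, became 2 at 10 kb and 2 in gene bodies. The background moves too, from 8.52% of protein-coding genes for gene bodies to 15.5% at 10 kb, 44.1% at 100 kb and 66.1% at 250 kb. The 126 H3K4me1-marked regions became 81 at 10 kb, 191 at 100 kb, 59 in gene bodies, 60 at or above the median width, 69 when merged within 1000 bp, and 370 at 250 kb. These changes follow from how much sequence or how many regions each setting admits. Tbx21 lost its region at 10 kb and by nearest TSS and had 2 at 100 kb, Id3 had 0 at 10 kb and 1 by nearest TSS, Zeb2 had 1 by nearest TSS, and Eomes had 1 at 100 kb. Of 54 alternative values for 13 results, 35 kept their value within the tolerance (1.5 times for counts) and 19 moved. The overlap of Runx3-bound regions with H3K4me1 stayed at 100% in all alternatives but 1, the wider marked regions alone, where it was 85.7%. RUNX motifs were present in 71.4% of them in the central 200 bp.

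No paired analysis was possible because the repeats had been joined before calling, and no replicate was left out for the same reason. Calls of NIS were not analysed here. With neither heights nor read counts, strong and weak regions cannot be separated, and the number of bound places below the calling threshold is unknown.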
